A study of Homo sapiens with 10 samples.

Results

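Gene expression in PC3 cells treated with GW-516 was set against that in PC3 cells treated with PRT4165, each compound applied for 48 hours. PC3 is an established human prostate cancer cell line. The contrast used 4 of the 10 libraries of the series, 2 labelled GW-516 and 2 labelled PRT4165, chosen by their labels and not by any measured value. The other 6 libraries came from PC3 cells with stably expressed hairpins, 2 each from RNF2 shRNA1, RNF2 shRNA2 and Scramble shRNA cells. They entered only the shared estimate of the spread between libraries, and the Scramble shRNA values are given as a description, with no test. Levels are CPM, counts scaled to library size with TMM factors, and every adjusted p is from edgeR's quasi-likelihood test with Benjamini and Hochberg adjustment over all 18478 genes tested. Genes with an adjusted p under 0.05 are the called genes. Differences are log2 values, GW-516 minus PRT4165, and their errors are standard errors of the fit with 2 libraries in each group.

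PRT4165 is known as an inhibitor of the ubiquitin ligase activity of Polycomb repressive complex 1 (PRC1). In PRC1 a RING1 or RNF2 subunit, paired with a PCGF protein such as BMI1, places ubiquitin on histone H2A at silenced developmental genes, while CBX and PHC subunits hold the complex on chromatin. For GW-516 the labels give the code name alone, with no target. They give no dose for either compound and no vehicle group, so a difference between the compounds and a difference between their doses cannot be told apart. The labels do not say whether replicate libraries are separate cultures, so p-values measure only the spread between these libraries.

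The 4 libraries were deep and similar. Total counts were 83917665 and 80652630 with GW-516, against 79544492 and 69090002 with PRT4165, and the range over all 10 libraries was 65877850 to 108380198. The median absolute log2 difference between the 2 libraries of a group was 0.0391 for GW-516 and 0.0703 for PRT4165. RNF2 stood at 12.1 and 12 CPM in the libraries labelled RNF2 shRNA1, at 33.5 and 35.3 CPM in those labelled RNF2 shRNA2 and at 30.6 and 28.3 CPM in Scramble shRNA cells, so the libraries labelled RNF2 shRNA2 did not show a reduced target. Leaving both of them out of the fit gave 3699 genes higher and 4578 lower with GW-516. Markers of the line were present in all 4 libraries. The epithelial genes EPCAM (197 and 192 CPM with GW-516, 204 and 199 CPM with PRT4165) and KRT18 (387 and 377 CPM with GW-516, 314 and 329 CPM with PRT4165) were abundant. The prostate-specific antigen gene KLK3 had no count in any of the 4.

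Treatment with GW-516 gave a transcriptome that differed from that with PRT4165 at many genes, mostly by small amounts. Of 18478 genes tested, 7594 were called (41.1%), 3348 higher with GW-516 (18.1%) and 4246 lower (23.0%). These shares are the background for the list counts given below. The share called rose with level, from 7.84% of genes below 0.5 CPM to 57.4% between 20 and 100 CPM and 68.8% at 100 CPM or more. The background shares are not matched to level, so for lists of abundant genes the 41.1% is a low standard. The median absolute difference of the called genes was 0.283 on the log2 scale, and 10.7% of them differed by 2-fold or more. At that size the directions were unequal, with 700 genes higher (3.79% of those tested) and 109 lower (0.590%). When library pairs that were nearly identical, that of GW-516 among them, were summed and counted as 1 sample each, 1934 genes were higher and 2621 lower. Without filtering by calls, both GW-516 libraries lay above both PRT4165 libraries for 33.9% of genes tested and below both for 35.6%.

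Most genes that differed by 2-fold or more, in either direction, were at low levels. Of the 700 genes that were 2-fold or more higher, 605 (86.4%) stayed below 5 CPM in both groups, as did 101 of the 109 that were 2-fold or more lower. The median difference of all genes tested was 0.18 below 0.5 CPM and 0.22 between 0.5 and 1 CPM, but -0.05 between 20 and 100 CPM and -0.10 above 100 CPM. Long noncoding genes annotated as lincRNA or antisense made up 12.1% of genes tested and 28.0% of those 2-fold or more higher (196 of 700). Protein-coding genes made up 73.3% and 57.9%. Among the 109 genes 2-fold or more lower, lincRNA or antisense genes made up 24.8% (27 genes) and protein-coding genes 34.9%. The larger share of noncoding genes was thus found in both directions. Thinned to an equal total of 65877850 counts, the GW-516 libraries held 25559 and 25425 genes with a count, against 24239 and 24022 with PRT4165. The other 6 libraries held 23337 to 24780, so both GW-516 libraries had the highest numbers of the series. At 5 CPM or more in 1 of the groups, 95 genes were 2-fold or more higher and 8 were lower, so the unequal directions at that size held there as well.

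**Figure D1:**
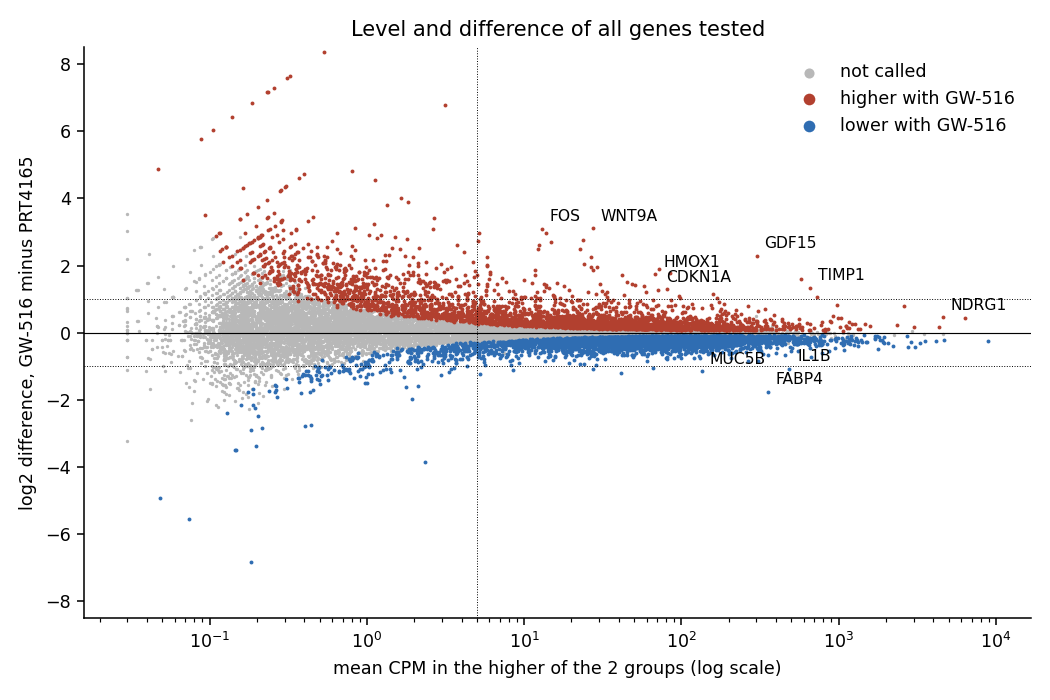
Each point is 1 of the 18478 genes tested, with the mean CPM of the group where it was higher on the x axis (log scale, 23 genes below 0.03 CPM drawn at 0.03) and the log2 difference, GW-516 minus PRT4165, on the y axis. Red and blue points are called higher and lower, dotted lines mark 2-fold and 5 CPM, and the spread to high positive values sits at low levels, where differences reached 8.36.

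**Figure D2:**
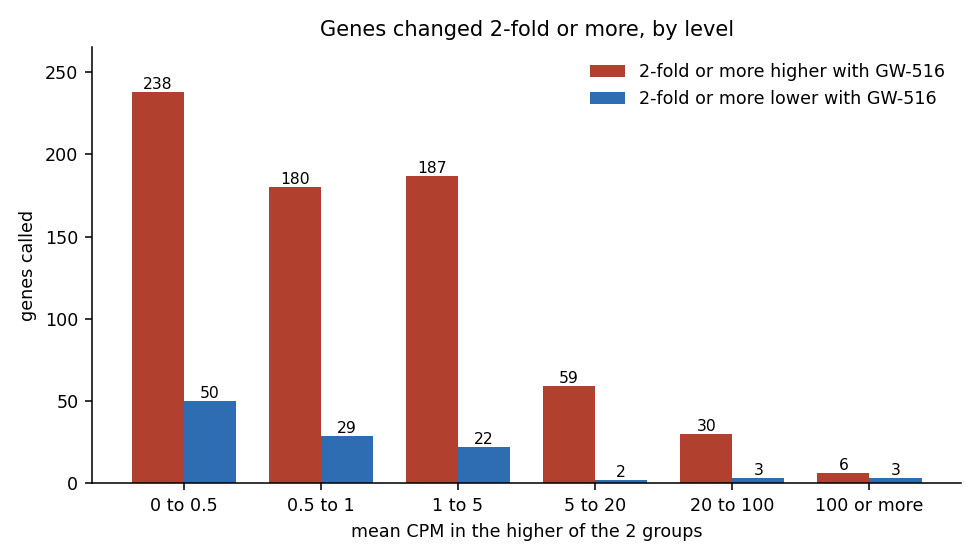
Bars count genes called 2-fold or more higher (red) or lower (blue) with GW-516, by the mean CPM of the group where the gene was higher. The counts are 238 and 50 below 0.5 CPM, and 6 and 3 at 100 CPM or more.

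Transcripts of the PRC1 machinery itself mostly differed by small amounts between the compounds. RNF2, the main catalytic subunit, stood at 26.9 and 28.1 CPM with GW-516 and at 29.1 and 29.1 CPM with PRT4165, a difference of -0.08 (95% interval -0.19 to 0.03, adjusted p = 0.22). Its paralog RING1 stood at 11.9 and 12.4 CPM with GW-516 and at 12.9 and 12.9 CPM with PRT4165 (-0.09, interval -0.24 to 0.07, adjusted p = 0.39). BMI1 was lower with GW-516 by a small amount, at 221 and 225 CPM against 257 and 245 CPM with PRT4165 (-0.17 ± 0.0498, adjusted p = 0.015). That call was lost in 6 of 16 alternatives, among them leaving out any 1 of the 4 libraries. Of 24 PRC1 genes tested, 3 were higher and 8 lower (45.8% called, against 41.1% of all genes), with a median of -0.03 against -0.0019 over all genes. Without the first library of either compound 5 were lower.

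BCORL1, a variant PRC1 corepressor, was higher by 0.36, and the SAM-domain protein gene SCMH1 was lower, with a log2 difference of -0.39. PHC1 was the lowest member at -0.62, with mean levels of 4.50 CPM with GW-516 and 6.92 CPM with PRT4165.

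Of 12 tested genes of PRC2, the complex that methylates histone H3, 2 were higher and 5 lower. The share called was 58.3%, against 41.1% of all genes and 57.4% of genes between 20 and 100 CPM. EZH2, the catalytic subunit of PRC2, was not called (-0.09, adjusted p = 0.082). PHF19, an accessory subunit, led the decreases at -0.42, and without the first library of either compound 3 members were lower. Of 11 genes for enzymes and cofactors that remove ubiquitin from H2A, none was higher and 5 were lower, led by USP22 at -0.23. The share called was 45.5%, near the 41.1% of all genes. The 29 tested developmental regulators known as Polycomb targets had 8 higher and 5 lower members, with a median of 0.13, and 3 higher and 4 lower with near-identical pairs summed. Without either GW-516 library 5 were higher. Of these developmental regulators 44.8% were called, near the 41.1% of all genes. HOXB13, the prostate homeobox gene, was lower at 201 and 200.4 CPM with GW-516 against 230.4 and 240.2 CPM with PRT4165 (log2 -0.23). TBX3 was higher by 0.46 and SOX9 by 0.24.

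Among called genes of at least 5 CPM in 1 group, the largest increases with GW-516 were those of WNT9A, a secreted WNT ligand, and of FOS, the inducible subunit of the transcription factor AP-1. WNT9A (chr1:228106357-228135631, minus strand, GRCh37) stood at 28.1 and 26.7 CPM with GW-516 and at 2.80 and 3.58 CPM with PRT4165, 8.64-fold higher (3.11 ± 0.135, adjusted p = 1.3e-11). FOS (chr14:75745477-75748933, plus strand, GRCh37) stood at 12.2 and 13.7 CPM with GW-516, at 1.61 and 1.38 CPM with PRT4165 and at 1.42 and 1.25 CPM in Scramble shRNA cells. It was 8.59-fold higher than with PRT4165 (3.10 ± 0.133, adjusted p = 4.4e-15), and the PRT4165 libraries lay near the Scramble shRNA level. By the same measure ARC (2.97), an activity-induced cytoskeletal gene, GCNT3 (2.97), a mucin-type glycosyltransferase, AKR1C1 (2.77), an aldo-keto reductase, SERPINB3 (2.74), a serpin, and ATP6V0A4 (2.70), a proton pump subunit, followed. GDF15, a stress-induced secreted factor of the TGF-beta family, was the most abundant of the 12 largest increases, at 301 and 301 CPM with GW-516 against 55.3 and 67.2 CPM with PRT4165 (2.30 ± 0.0944, adjusted p = 2.7e-06).

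**Figure D3:**
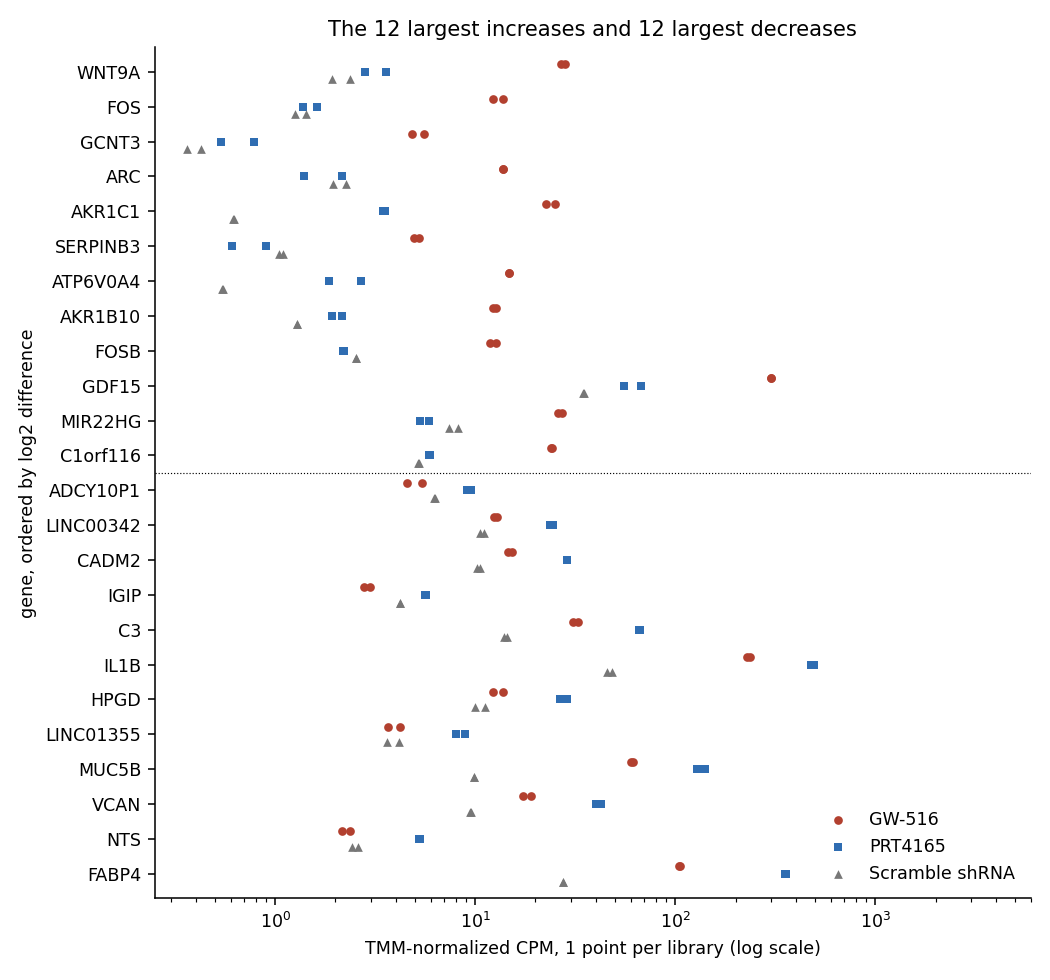
Points are TMM-normalized CPM in single libraries (log scale) for the 12 genes with the largest increases and the 12 with the largest decreases with GW-516, among called genes of at least 5 CPM in 1 group. Circles are GW-516, squares PRT4165 and triangles Scramble shRNA, and for every gene the GW-516 and PRT4165 points do not overlap, as the choice of genes required.

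The increase of FOS was shared by other immediate early genes, which respond to growth factor and stress signals without new protein synthesis. Of 27 tested, 15 were higher and 3 lower (66.7% called, against 41.1% of all genes), with a median of 0.36. FOSB, a relative of FOS, stood at 11.9 and 12.7 CPM with GW-516 and at 2.17 and 2.22 CPM with PRT4165 (2.49 ± 0.112, adjusted p = 1.0e-14). ATF3, a stress-induced factor of the same bZIP class, stood at 49.9 and 51.8 CPM with GW-516 and at 18.2 and 19.9 CPM with PRT4165 (1.42 ± 0.0524, adjusted p = 2.6e-16). EGR1, a zinc finger factor, was low in all libraries, at 1.41 and 1.07 CPM with GW-516 and 0.151 and 0.173 CPM with PRT4165. The more abundant AP-1 genes JUN and FOSL1 did not follow. JUN stood at 147 and 152 CPM with GW-516, within the range of 135 and 154 CPM with PRT4165, and was not called (0.05, adjusted p = 0.48). FOSL1 was lower, with means of 335 CPM with GW-516 and 387 CPM with PRT4165 (log2 -0.21).

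Genes that dampen MAP kinase signals went in both directions, with 9 of 19 called higher and 3 lower, against 18.1% and 23.0% of all genes. The phosphatase genes DUSP1 (58.4 and 57.2 CPM with GW-516, 22.1 and 22.3 CPM with PRT4165) and DUSP5 (158 and 158 CPM with GW-516, 70.8 and 70.5 CPM with PRT4165) were 2.6-fold and 2.24-fold higher. DUSP6, the phosphatase most tied to ERK output, stood at means of 284 CPM with GW-516 and 285 CPM with PRT4165 and was not called (log2 -0.01). SPRED1, an inhibitor of the RAS pathway, was lower by the log2 difference of -0.35.

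Cell division genes were lower with GW-516 without exception among those tested for mitosis. Of 43 mitosis and G2/M genes, 43 were called lower, against 23.0% of all genes, with differences from -0.85 to -0.26 and a median of -0.49. The proliferation marker MKI67 (chr10:129894923-129924649, minus strand, GRCh37) stood at 148 and 148 CPM with GW-516, at 274 and 259.7 CPM with PRT4165 and at 243 and 245 CPM in Scramble shRNA cells (-0.85 ± 0.0305, adjusted p = 1.5e-16). CENPF, a kinetochore protein, stood at 172 and 173 CPM with GW-516 and at 318 and 297 CPM with PRT4165. FOXM1, the transcription factor that drives G2/M genes, stood at 95.2 and 94.5 CPM with GW-516 and at 148 and 147 CPM with PRT4165. Summed over the list, levels were 4436 and 4447 CPM with GW-516, 6369 and 6179 CPM with PRT4165 and 6459 and 6441 CPM in Scramble shRNA cells, so the GW-516 libraries lay below both other groups. In bulk RNA, fewer cells in division and less of these messengers per cell cannot be told apart. At least 42 of the 43 were lower in each of 16 alternatives.

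Replication genes moved the same way by a smaller amount, with 40 of 43 DNA replication and G1/S genes lower, 2 higher and a median of -0.33. MYBL2, a transcription factor of the cell cycle, led at 125 and 121 CPM with GW-516 against 208 and 206 CPM with PRT4165 (-0.75 ± 0.0330, adjusted p = 6.2e-15). MCM7, a subunit of the replicative helicase, stood at 272 and 275 CPM with GW-516 and at 361 and 376 CPM with PRT4165 (-0.43). CDC7, the kinase that fires origins, was lower by the log2 difference of -0.68. Cyclin E was the exception. CCNE1, which starts S phase with CDK2, stood at 8.42 and 8.68 CPM with GW-516 and at 4.02 and 4.40 CPM with PRT4165 (1.02 ± 0.104, adjusted p = 2.0e-08), and CCNE2 was higher by 0.18.

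Mitotic and replication genes are known to carry different promoter elements, and the promoters of 4 leading members are shown for that reason. The mitotic element, the cell cycle genes homology region, was searched as TTTGAA, and replication genes are known for E2F sites, searched as TTGGCGC and TTTCCCGC. CCAAT, the NF-Y site, was searched as well, on both strands throughout. Sequences are from RefSeq on GRCh38.p14, run from 250 bases before to 50 after the start of the gene, and carry all matches to these 4 motifs in capitals. They are chr10:128126374-128126673 (minus strand) for MKI67, chr1:214602945-214603244 (plus) for CENPF, chr1:200620702-200621001 (minus) for KIF14, a mitotic kinesin, and chr7:100101348-100101647 (minus) for MCM7.
MKI67: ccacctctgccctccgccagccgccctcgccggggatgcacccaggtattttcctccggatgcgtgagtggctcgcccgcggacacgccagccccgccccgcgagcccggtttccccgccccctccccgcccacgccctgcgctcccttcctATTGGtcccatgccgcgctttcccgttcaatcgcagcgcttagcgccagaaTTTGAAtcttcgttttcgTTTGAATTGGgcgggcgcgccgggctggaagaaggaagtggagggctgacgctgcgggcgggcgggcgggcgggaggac
CENPF: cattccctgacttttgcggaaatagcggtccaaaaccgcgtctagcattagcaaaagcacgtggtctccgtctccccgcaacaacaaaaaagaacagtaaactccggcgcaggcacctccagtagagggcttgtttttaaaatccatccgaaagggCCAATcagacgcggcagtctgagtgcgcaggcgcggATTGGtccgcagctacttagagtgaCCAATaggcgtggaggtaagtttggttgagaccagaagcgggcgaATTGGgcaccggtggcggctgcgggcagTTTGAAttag
KIF14: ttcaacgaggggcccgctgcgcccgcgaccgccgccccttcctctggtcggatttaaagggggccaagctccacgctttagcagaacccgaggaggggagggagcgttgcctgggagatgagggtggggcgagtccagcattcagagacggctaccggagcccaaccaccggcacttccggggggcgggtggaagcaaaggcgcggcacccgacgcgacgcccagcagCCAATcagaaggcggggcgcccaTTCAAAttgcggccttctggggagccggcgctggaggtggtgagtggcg
MCM7: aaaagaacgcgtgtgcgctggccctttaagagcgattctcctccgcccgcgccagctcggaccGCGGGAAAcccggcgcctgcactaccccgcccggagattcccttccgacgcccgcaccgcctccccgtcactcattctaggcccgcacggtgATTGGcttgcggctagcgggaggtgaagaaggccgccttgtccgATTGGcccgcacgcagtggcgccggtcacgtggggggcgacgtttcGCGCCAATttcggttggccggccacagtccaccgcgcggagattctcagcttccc
MKI67 held 2 matches to TTTGAA, and 1 of these shares a base with a CCAAT match. CENPF and KIF14 held 1 match to TTTGAA each, that of KIF14 on the opposite strand, where it reads TTCAAA. MCM7 held none but held 1 match to each E2F motif, and its TTGGCGC match overlaps a CCAAT match. Of 43 mitosis genes 36 had a promoter in the table, and 25 of these (69.4%) held TTTGAA, as did 1 of 37 promoters found for replication genes (2.7%). The share was 10.3% over 12057 promoters of genes tested and 15.4% over all 27305. TTGGCGC was in 27% of the replication promoters and 8.33% of the mitosis promoters, against 4.69% of promoters of genes tested, and TTTCCCGC in 27% and 2.78%, against 2.48%. CCAAT was in 75% of the mitosis promoters and 51.4% of the replication promoters, against 36.4%. A match describes letters in this window and does not show that a factor is bound.

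The cyclin-dependent kinase inhibitor genes CDKN1A and CDKN2B were higher with GW-516. CDKN1A (chr6:36644305-36655116, plus strand, GRCh37), which encodes p21, stood at 69.6 and 72.4 CPM with GW-516, at 28.9 and 30.0 CPM with PRT4165 and at 16 and 14.5 CPM in Scramble shRNA cells. It was 2.41-fold higher than with PRT4165 (1.27 ± 0.0527, adjusted p = 2.3e-15), and the 3 groups did not overlap. CDKN2B, which encodes p15, was higher by 0.40, at 122 and 124 CPM with GW-516 and 91.0 and 95 CPM with PRT4165. Of 34 tested CDK inhibitor and p53-type stress genes, 19 were higher and 4 lower, with a median of 0.21. The share called was 67.6%, against 41.1% of all genes. PC3 cells are known to lack functional p53, and the list names genes by the pathway in which they were described. MDM2, the p53 feedback gene, was not called, with means of 50.8 CPM with GW-516 and 49.3 CPM with PRT4165 (log2 0.04). PLK2 was higher by 1.25 and the growth arrest gene GADD45B by 0.77, while FAS, a death receptor, and XPC, a repair factor, were lower, with log2 differences of -0.29 and -0.37.

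**Figure D4:**
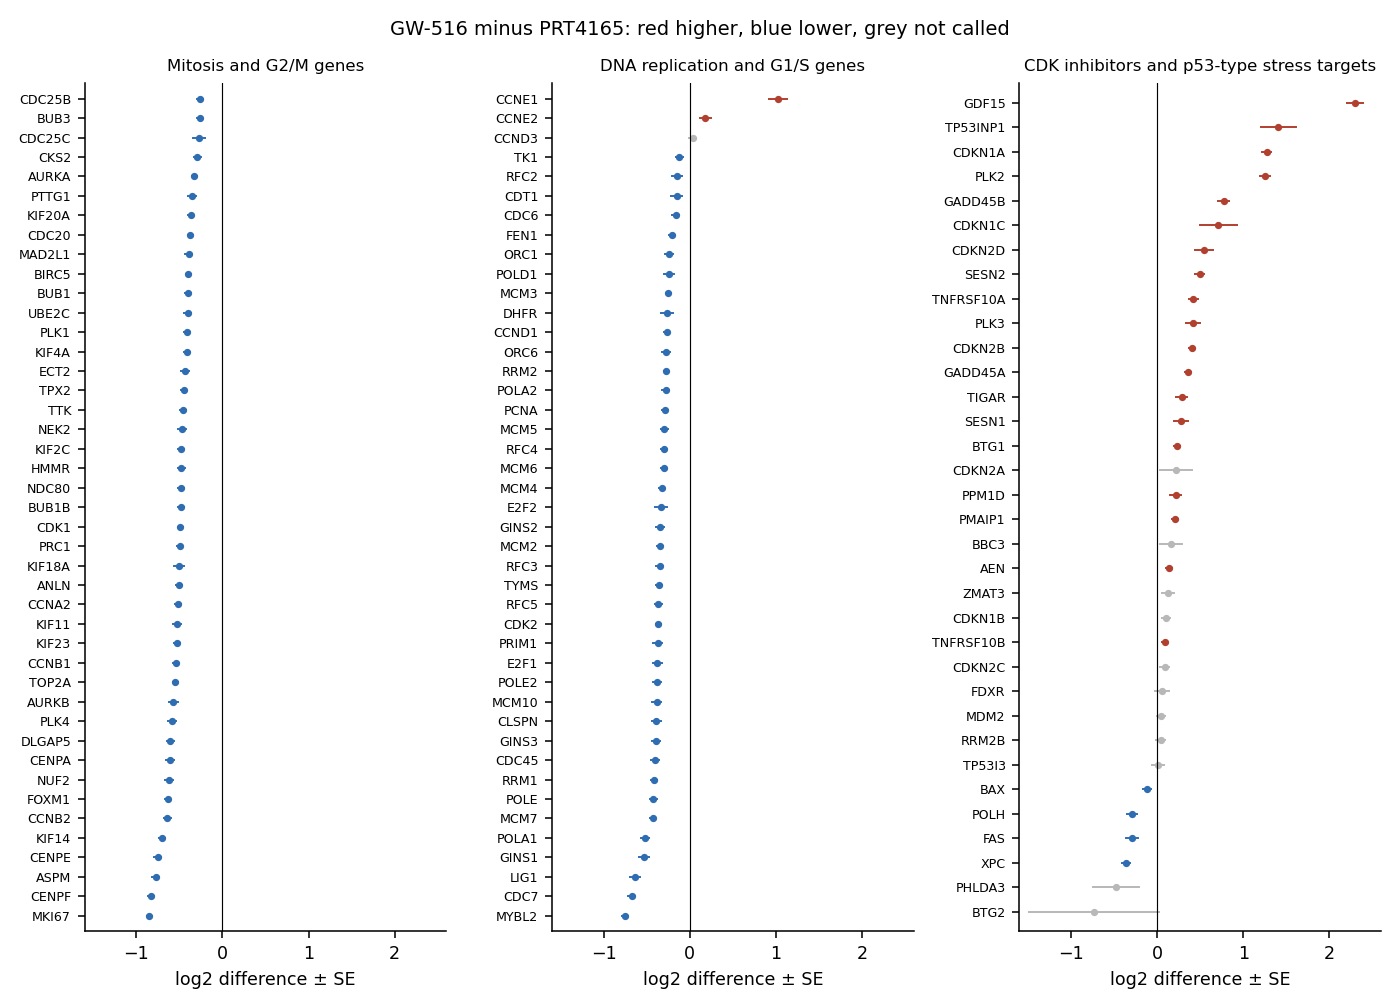
Points are log2 differences, GW-516 minus PRT4165, with standard errors for each tested member of 3 gene lists, red for called higher, blue for called lower and grey for not called. All 43 mitosis genes lie between -0.85 and -0.26, and CDKN1A lies at 1.27.

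Apoptosis regulators split. The survival gene BCL2 was lower, at 11.1 and 10.7 CPM with GW-516 against 19.2 and 17 CPM with PRT4165 (-0.73 ± 0.0674, adjusted p = 3.9e-09). The pro-death BH3-only genes BMF (8.68 and 8.74 CPM with GW-516, 4.08 and 3.74 CPM with PRT4165) and BCL2L11 were higher by 1.15 and 0.36. The survival genes MCL1 and BCL2L1 were also higher, by 0.13 and 0.19. In all 6 of 16 tested members were higher and 2 lower, and 1 lower without the first GW-516 library or either PRT4165 library.

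Most histone genes tested were higher while replication genes were lower. Of 26 entries of the histone list, 15 were matched to an identifier and 11 were tested, so the list was covered only in part. Of the 11 tested, 9 were higher and none lower, against 18.1% and 23.0% of all genes, with a median of 1.36. The linker histone gene H1-2 stood at 44.7 and 44.8 CPM with GW-516 and at 15.5 and 16.1 CPM with PRT4165 (1.5 ± 0.0533, adjusted p = 1.3e-16). H4C8 stood at 25.4 and 27.7 CPM with GW-516 and at 6.57 and 7.11 CPM with PRT4165, and H2BC12 at 96.6 and 95.2 CPM against 44.8 and 44.1 CPM with PRT4165. Messengers of replication-dependent histones mostly lack a poly(A) tail, so libraries of messenger RNA hold only part of them, and reads can be shared between near-identical copies.

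Genes controlled by NRF2, the transcription factor of the oxidative and electrophile response, were higher with GW-516. Of 34 tested, 25 were higher and 2 lower, against 18.1% and 23.0% of all genes, with a median of 0.41. HMOX1, which degrades haem, stood at 69.7 and 66.8 CPM with GW-516, at 20.3 and 20.6 CPM with PRT4165 and at 13 and 11.6 CPM in Scramble shRNA cells (1.74 ± 0.0585, adjusted p = 4.8e-17). NQO1, a quinone reductase, stood at 339.9 and 340.2 CPM with GW-516 and at 209.7 and 207 CPM with PRT4165, where Scramble shRNA cells had 216 and 217 CPM. The aldo-keto reductase genes AKR1C1 (24.9 and 22.7 CPM with GW-516, 3.52 and 3.45 CPM with PRT4165) and AKR1B10 (12.7 and 12.2 CPM with GW-516, 1.93 and 2.16 CPM with PRT4165) were 6.83-fold and 6.08-fold higher. Both belong to families of near-identical genes, so their counts are uncertain. The ferritin genes FTH1 and FTL were higher by 0.46 and 0.83 and the cystine transporter gene SLC7A11 by 0.65. NFE2L2, which encodes NRF2 itself, was not called (0.08). The core of the antioxidant response element, TGACNNNGC on either strand, was in 8 of the 25 promoters found (32%), against 15.1% of promoters of genes tested.

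Of 11 tested targets of the aryl hydrocarbon receptor, another sensor of foreign compounds, 5 were higher and 1 lower, with 3 higher without either GW-516 library. The share called was 54.5%, against 41.1% of all genes. NQO1 is on both lists. CYP1B1, a defining target, was lower at 179 and 177 CPM with GW-516 against 215 and 213 CPM with PRT4165 (log2 -0.26), and CYP1A1 was not called. The metallothionein gene MT1X, which binds zinc and copper, was higher by 0.94, and 3 of 7 tested members of its list were higher and 1 lower. Of that list 57.1% were called, and of the drug transport and conjugation genes 55.0%, against 41.1% of all genes. Among 20 drug transport and conjugation genes 8 were higher and 3 lower (none lower without the first GW-516 library, 1 without the first PRT4165 library), with GSTM3 higher by 0.50 and the efflux transporter genes ABCG2 and ABCB1 higher from levels below 1 CPM in all 4 libraries.

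Lysosome and autophagy genes were higher as a group. Of 35 tested, 24 were called higher and none lower, against 18.1% and 23.0% of all genes, at a median of 0.25. SQSTM1, the autophagy receptor p62, stood at 918 and 916 CPM with GW-516 and at 635 and 664 CPM with PRT4165 (0.50 ± 0.0260, adjusted p = 1.8e-13). GABARAPL1, which coats autophagosomes, was higher by 0.79, the protease gene CTSL by 0.61 and GLA, a lysosomal galactosidase, by 0.78. ATP6V0A4, an acid pump subunit of specialised epithelia, stood at 14.8 and 14.8 CPM with GW-516 and at 2.67 and 1.86 CPM with PRT4165. The membrane protein gene LAMP1 did not follow, at means of 101 CPM with GW-516 and 101 CPM with PRT4165. TGACNNNGC was in 40% of the 25 promoters found, against 32% for the NRF2 list and 15.1% of promoters of genes tested.

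Of 35 tested genes of the integrated stress response, run by ATF4, 21 were higher and 7 lower, with a median of 0.17. The share called was 80.0%, against 41.1% of all genes. DDIT3, which encodes CHOP, stood at 59.4 and 54.9 CPM with GW-516 and at 33.0 and 30.0 CPM with PRT4165 (0.86 ± 0.0507, adjusted p = 2.2e-12). TRIB3 was higher by 0.58, PPP1R15A by 0.61 and CHAC1 by 1.13. The 7 lower members include SHMT2 and MTHFD2, enzymes of mitochondrial folate metabolism, at log2 -0.23 and -0.14. Of 23 genes of the endoplasmic reticulum, 13 were higher and 1 lower (60.9% called, against 41.1% of all genes). HERPUD1 (119 and 117 CPM with GW-516, 70.0 and 70.7 CPM with PRT4165) and DNAJB9, both of the unfolded protein response, were higher by 0.75 and 0.79, and the abundant chaperone genes HSPA5 and CALR by 0.21 each.

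Cytosolic and mitochondrial chaperones of the heat shock list went in both directions, 5 of 20 higher and 8 lower, with 3 higher without the first GW-516 library. HSPD1, the mitochondrial chaperonin, was lower at 1689 and 1681 CPM with GW-516 against 2098 and 2019 CPM with PRT4165 (log2 -0.29), and HSP90AB1 was lower at -0.25. HSPB8 and its partner BAG3, which feed aggregates to autophagy, were higher by 0.88 and 0.35. Of the heat shock list 65.0% were called, against 41.1% of all genes.

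Of 33 hypoxia and glycolysis genes, 21 were called higher and 2 lower, against 18.1% and 23.0% of all genes, with a median of 0.20. The number lower was 1 without either GW-516 library and 3 without the first PRT4165 library. ADM, a vasoactive peptide, stood at 136 and 134 CPM with GW-516, at 80.3 and 82.7 CPM with PRT4165 and at 27.7 and 28.6 CPM in Scramble shRNA cells (0.73 ± 0.0379, adjusted p = 1.7e-13). NDRG1, a stress gene and among the most abundant members, stood at 4615 and 4600.5 CPM with GW-516 and at 3326 and 3392 CPM with PRT4165. ALDOC, an aldolase, was higher by 0.78. HIF1A itself was lower by a small amount (log2 -0.07).

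Among called genes of at least 5 CPM, the largest decrease with GW-516 was of FABP4, the fatty acid carrier of fat cells. It stood at 105 and 104 CPM with GW-516, at 356 and 353 CPM with PRT4165 and at 27.6 and 27.5 CPM in Scramble shRNA cells, so that both compound groups lay above the Scramble shRNA level and did not overlap. It was 3.39-fold lower than with PRT4165 (-1.76 ± 0.0392, adjusted p = 9.0e-20). Of 35 tested genes of the PPAR receptors and lipid use, 5 were higher and 11 lower, with a median of -0.10. The share called was 45.7%, near the 41.1% of all genes. With near-identical pairs summed, 5 were higher and 7 lower. PDK4, which restrains glucose oxidation, was lower at 14.6 and 16.3 CPM with GW-516 against 26.5 and 25.6 CPM with PRT4165 (log2 -0.75), and so was CPT1A, which admits fatty acids to mitochondria (log2 -0.44). ANGPTL4, a lipase inhibitor and PPAR target, went the other way, at 184 and 187 CPM with GW-516 against 97.4 and 109 CPM with PRT4165 (0.85 ± 0.0465, adjusted p = 7.2e-12). PLIN2, the coat protein of lipid droplets, was not called, at 419 and 412 CPM with GW-516 and 425 and 421 CPM with PRT4165. The receptor genes PPARG, PPARD and PPARA were higher by 0.19, 0.24 and 0.26.

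Sterol and fatty acid synthesis differed less. The shares called were 55.6% of cholesterol genes and 46.7% of fatty acid synthesis genes, against 41.1% of all genes. Of 27 cholesterol genes 9 were higher and 6 lower, with a median of 0.03, and with pairs summed 8 were higher and 2 lower. SC5D, an enzyme of sterol synthesis, was higher by 0.42. Of 15 fatty acid synthesis genes 4 were higher and 3 lower, with 2 higher without the first GW-516 library and 1 without the second library of either compound. The desaturase gene SCD was lower at 289.8 and 294 CPM with GW-516 against 342 and 330.4 CPM with PRT4165 (log2 -0.21).

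Of all genes of at least 5 CPM, only 8 were 2-fold or more lower, namely FABP4, NTS, VCAN, MUC5B, LINC01355, HPGD, IL1B and C3. MUC5B, a gel-forming mucin, stood at 61.5 and 60.2 CPM with GW-516, at 129 and 141 CPM with PRT4165 and at 9.91 and 9.90 CPM in Scramble shRNA cells (-1.15 ± 0.0446, adjusted p = 7.3e-16). VCAN, a matrix proteoglycan, stood at 17.4 and 19.1 CPM with GW-516 and at 42.7 and 40.1 CPM with PRT4165. C3, the central complement protein, stood at 30.9 and 32.7 CPM with GW-516 and at 66.5 and 66.1 CPM with PRT4165. NTS, which encodes neurotensin, and HPGD, which inactivates prostaglandins, were 2.32-fold and 2.12-fold lower. In FABP4, VCAN, MUC5B, IL1B, C3 and HPGD, 6 of the 8, both GW-516 libraries lay between the Scramble shRNA and the PRT4165 libraries.

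Cytokine genes were not moved as a block. IL1B, the inflammatory interleukin, stood at 236 and 229 CPM with GW-516, at 496 and 478 CPM with PRT4165 and at 45.7 and 48.0 CPM in Scramble shRNA cells (-1.07 ± 0.0333, adjusted p = 1.3e-17). Its relative IL1A was not called, at 1.99 and 1.92 CPM with GW-516 and 1.83 and 2.08 CPM with PRT4165. CCL2, a monocyte attractant, stood at 4.82 and 4.74 CPM with GW-516, within the range of 5.49 and 4.30 CPM with PRT4165 (-0.04, interval -0.27 to 0.19, adjusted p = 0.81), and at 14.6 and 14.7 CPM in Scramble shRNA cells. Without the first PRT4165 library the CCL2 difference turned to 0.15 and was again not called. CXCL8, a neutrophil attractant, was higher at 153 and 156 CPM with GW-516 against 86.6 and 86.0 CPM with PRT4165 (0.84 ± 0.0378, adjusted p = 1.0e-14), and CCL26, an eosinophil attractant, was 3.68-fold higher. Of 29 tested chemokine and cytokine genes 13 were higher and 4 lower, with a median of 0.22. The share called was 58.6%, against 41.1% of all genes.

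NF-kB subunit and feedback genes split evenly, 6 of 23 higher and 6 lower, with 3 higher and 1 lower when pairs were summed. Without the first GW-516 library 3 were lower, and without the first PRT4165 library 2. NFKB1 was lower at log2 -0.27 and BCL3 higher by 0.35. Of these 23 genes 52.2% were called, against 41.1% of all genes. Of 38 interferon-stimulated genes 18 were higher and 4 lower (2 lower without the second GW-516 library), with a median of 0.20. Of the interferon-stimulated genes 57.9% were called, against 41.1% of all genes. ISG20, an exonuclease, was higher at 59.0 and 61.0 CPM with GW-516 against 25.3 and 25.9 CPM with PRT4165 (1.23 ± 0.0450, adjusted p = 2.3e-16). OAS3, a sensor of double-stranded RNA, was lower at 49.7 and 49.4 CPM with GW-516 against 79.4 and 82.5 CPM with PRT4165 (-0.71). Of 21 genes of MHC class I presentation 7 were higher and 3 lower, and no member was lower without either GW-516 library and 1 without the first PRT4165 library. The share of these 21 genes called was 47.6%, near the 41.1% of all genes. B2M was higher by 0.27 and HLA-E by 0.56. HLA and IFIT genes have near-identical copies, and their counts are uncertain.

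Proteases and their inhibitors were mostly higher with GW-516. Of 29 tested, 21 were higher and 1 lower, against 18.1% and 23.0% of all genes, with a median of 0.55. TIMP1, an inhibitor of metalloproteinases, stood at 658 and 666 CPM with GW-516, at 259 and 269 CPM with PRT4165 and at 209 and 207 CPM in Scramble shRNA cells (1.33 ± 0.0329, adjusted p = 3.8e-19). MMP1, the interstitial collagenase, stood at 28.6 and 29.3 CPM with GW-516, at 7.27 and 7.49 CPM with PRT4165 and at 24.9 and 23.1 CPM in Scramble shRNA cells (1.97 ± 0.0619, adjusted p = 1.3e-17). MMP13, another collagenase, stood at 5.57 and 6.06 CPM with GW-516, at 1.75 and 1.15 CPM with PRT4165 and at 40.9 and 40.0 CPM in Scramble shRNA cells. The Scramble shRNA libraries were thus near those of GW-516 for MMP1 and above both compound groups for MMP13. PLAT and ADAMTS1 were higher by 0.83 and 0.98. PLAU, the urokinase gene, was not called, with means of 829.7 CPM with GW-516 and 817 CPM with PRT4165, and LCN2 was the lower member (log2 -0.36).

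Genes of epithelial and mesenchymal identity did not move as opposites. The share called was 41.2% of epithelial junction and keratin genes, near the 41.1% of all genes, and 63.0% of mesenchymal genes. Of 34 epithelial junction and keratin genes 12 were higher and 2 lower, with a median of 0.06, and none was lower without the second GW-516 library and 1 without the first PRT4165 library. KRT81 (268 and 266 CPM with GW-516, 145 and 159 CPM with PRT4165) and KRT8 (180.1 and 178 CPM with GW-516, 125 and 137 CPM with PRT4165) were higher by 0.81 and 0.45, and KRT81 shares near-identical copies with other hair keratins. CDH1, which encodes E-cadherin, was not called, at 39.3 and 39.1 CPM with GW-516 and 40.9 and 40.5 CPM with PRT4165. Of 27 mesenchymal genes 9 were higher and 8 lower. SNAI1, a repressor of E-cadherin, was higher at 30.0 and 30.4 CPM with GW-516 against 9.90 and 12.2 CPM with PRT4165 (1.45 ± 0.0786, adjusted p = 1.1e-12). COL1A2 was lower at 142 and 136 CPM with GW-516 against 209 and 214 CPM with PRT4165 (-0.61), while COL1A1, its partner chain, was higher by 0.76. ZEB1 and VIM were lower, with log2 differences of -0.19 and -0.21.

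Targets of YAP and TEAD had 9 of 17 members higher and 5 lower, with NT5E higher by 1.16 and TEAD1 lower at log2 -0.31. Of 21 angiogenic factors 10 were higher and 3 lower (1 lower without the first GW-516 library), including HBEGF, a ligand of the EGF receptor, at 37.4 and 36.1 CPM with GW-516 against 18.7 and 18.5 CPM with PRT4165 (0.98 ± 0.0535, adjusted p = 3.8e-13). Of 27 stemness genes 12 were higher and 5 lower, with 3 lower without the first library of either compound. ALDH1A3, a retinal dehydrogenase, was lower at 767 and 767 CPM with GW-516 against 1085 and 1082 CPM with PRT4165 (-0.50), and ITGA2, an integrin, was higher by 0.52. Of 8 tested luminal prostate genes 3 were higher and 3 lower, and of 5 neuroendocrine genes UCHL1 was called higher by 0.17, a call lost without either PRT4165 library.

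Mitochondrially encoded and ribosomal protein genes were lower by small amounts. Of 15 mitochondrial genes 12 were lower and none higher, with a median of -0.25, and all 15 fitted differences were below 0. MT-CO1, a subunit of cytochrome oxidase, stood at 4014 and 4069 CPM with GW-516 and at 4844 and 4538 CPM with PRT4165 (log2 -0.22). The mitochondrial share of all counts was 2.246% and 2.263% with GW-516, against 2.672% and 2.46% with PRT4165 and 2.475% and 2.511% in Scramble shRNA cells. The PRT4165 libraries differed from each other in this share, and the median was -0.17 without the first of them and -0.32 without the second. Of 41 cytosolic ribosomal protein genes 18 were lower and none higher, with a median of -0.15, and RPL3 stood at 859 and 850.5 CPM with GW-516 against 1092 and 1078 CPM with PRT4165 (-0.34 ± 0.0244, adjusted p = 4.6e-11). That count was 37 without the libraries labelled RNF2 shRNA2 and 31 in a fit of the 4 libraries alone. Over all genes tested, 23.0% were lower. Among all genes at 100 CPM or more, 1339 of 2587 were lower and 440 higher, with a median of -0.10. Many ribosomal protein genes have processed copies in the genome, and reads can be shared with them. Among proteasome genes 40.0% were called, near the 41.1% of all genes. Of 30 proteasome genes 10 were higher and 2 lower, with a median of 0.06 and 1 higher and 1 lower with pairs summed. Without the first GW-516 library 4 were higher, and without the second 5.

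Blood cell markers were at or near 0 in all 4 libraries. CD3E of T cells and HBB of red cells had no count in the 4 libraries, and PTPRC, the common leukocyte marker, had 2 and 8 counts with GW-516 and 0 and 4 counts with PRT4165. Of 16 haematopoietic markers 7 were tested, 4 were called higher and 5 had no count in the 4 libraries. The summed level of the list was 2.85 and 2.93 CPM with GW-516, against 1.22 and 0.808 CPM with PRT4165. All 7 tested members were below 1 CPM in all 4 libraries, and 1 member was called without the second PRT4165 library and 2 without the second GW-516 library. Of 11 tested stromal and endothelial markers 3 were higher, COL1A1, COL3A1 and DCN, and DCN had no count with PRT4165. Their summed level was 68.6 and 67.6 CPM with GW-516, against 46.6 and 49.8 CPM with PRT4165, most of it COL1A1 (46.9 and 46.1 CPM with GW-516, 25.3 and 29.7 CPM with PRT4165), and the part of other cells in these results was not tested.

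**Figure D5:**
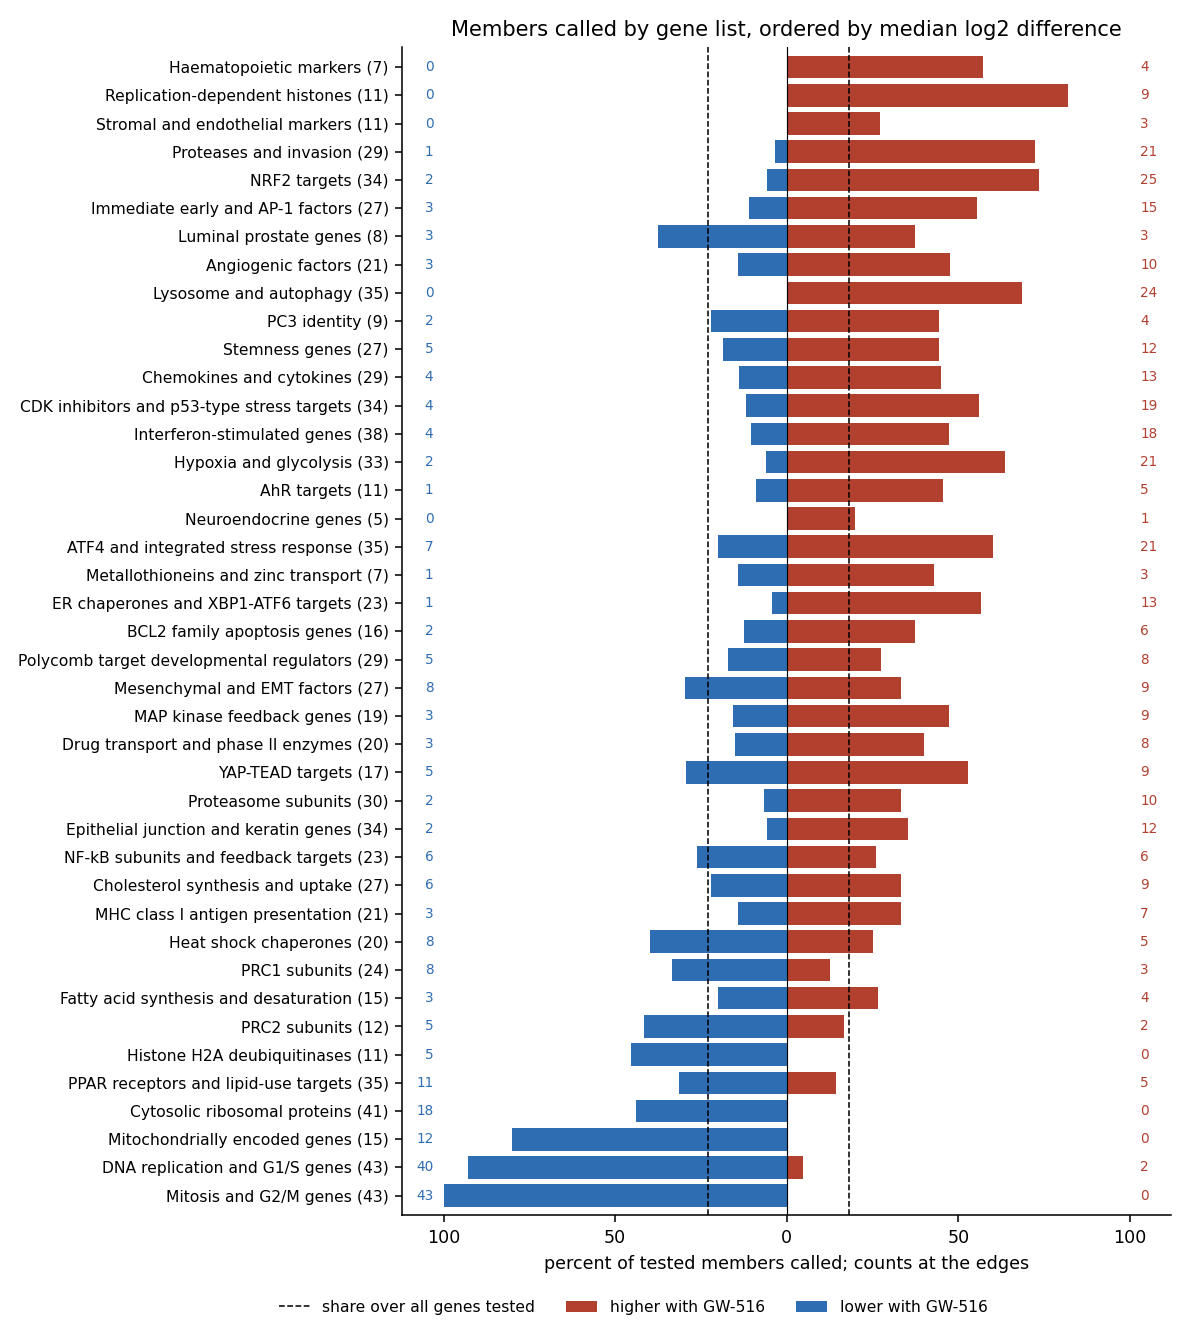
Bars give the percent of tested members called higher (red, right) and lower (blue, left) with GW-516 for each of 41 gene lists, with the number tested in parentheses, the counts at the edges and the lists ordered by their median log2 difference. Dashed lines mark the shares over all genes tested, 18.1% higher and 23.0% lower, and the mitosis list reaches 100% lower.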

How the data were processed

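RNA-seq of PC3 cells was read from 10 deposited count tables, 1 per library and 2 libraries per group. Per the file headers, the authors counted reads per gene with featureCounts 1.4.3-p1, strand option 2 and GENCODE 18 genes. The deposited values are raw counts with no normalization. No pair option stands in that command; each read end was therefore counted, and counts overstate the number of fragments. The submitters' processing notes give hg19, also called GRCh37, as the build and name STAR and DESeq2 1.8.1 without a role. Neither says what was done with multi-mapping reads. Per the labels' protocols, libraries were made with a stranded mRNA kit from Trizol-extracted RNA and sequenced paired-end.

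Of 57445 identifiers 51488 (89.6%) matched a symbol. Counts were fitted with edgeR 4.0.16 (R 4.3.3): TMM scaling, filterByExpr with a minimum count of 10 (18478 genes kept), a term for each group with all 10 libraries entered, which leaves 5 residual degrees of freedom, and its robust quasi-likelihood test, two-sided, with Benjamini and Hochberg adjustment over all genes. The fit was tested on simulated data. TMM factors were 1.05 and 1.05 with GW-516 and 0.997 and 1 with PRT4165. Chi-square per degree of freedom between the 2 libraries of a group, halved for the 2 read ends, was 1.12 for GW-516 and 3.7 for PRT4165. The GW-516 libraries thus differed by little more than counting noise. Each labelled library was entered as its own sample, and the counts with near-identical pairs summed are given as an alternative.

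The members, the 41 gene lists and the tests were chosen with earlier results of these data known. Named genes were FOS, CDKN1A, FABP4, RNF2, RING1, BMI1 and CCL2, the 12 largest changes each way among called genes with a symbol, at least 5 CPM in 1 group and no overlap of the 2 groups, and up to 4 members of each list with the smallest adjusted p. Other list members in the text, such as HSPA5 and CCNE1, were chosen after their values were seen. Lists are described by counts and medians, with no set test. Coordinates of genes are those of the count tables (GRCh37), and promoters are RefSeq sequences on GRCh38.p14, 1 per symbol. Alternatives were other scaling, tools, filters, thresholds and fits, depth, summed pairs, a replicate block and leaving out each library. Some genes are not reported here.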

Additional observations from a re-analysis of the deposited data

How the results depend on the processing

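Of 178 genes named by rule, 171 were called. The rule favoured small adjusted p and large changes in these data, so this share was largely set by the choice. Of the 171, 157 had the same direction and call in each of the 16 alternatives that tested them. Not every alternative tested every gene. With at least 1 CPM in 2 libraries, 164 of the 171 were tested, all with the same direction and call. The only reversal was of CCL2, which was not called, at 0.15 without PRT4165 replicate 1 and -0.20 without PRT4165 replicate 2. With near-identical pairs summed, 1934 genes were higher, 2621 lower and 56 2-fold or more lower, and 4539 of the 7594 called genes (59.8%) were called in the same direction. With at least 1 CPM in 2 libraries, 312 genes were 2-fold or more higher and 29 lower, since fewer low genes were tested. The 2-fold lower genes numbered 69 by DESeq2 and 56 at an adjusted p below 0.01. Leaving out 1 library gave 2456 to 2988 genes higher, 3210 to 3862 lower, 527 to 590 2-fold or more higher and 68 to 91 2-fold or more lower, against 109, with 68 without PRT4165 replicate 1. With an arm of 1 library, that library is assumed to vary like the other groups.

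Whether replicate numbers pair the libraries could not be decided. Over 13104 genes the deviations of same-numbered GW-516 and PRT4165 libraries had a correlation of -0.00407. The GW-516 libraries differed by little more than counting noise, so this correlation would be weak with or without pairing. With the replicate number as a block, 3254 genes were higher and 4165 lower (674 and 109 by 2-fold or more), and with the 4 libraries alone and the block, 3816 and 3877 (800 and 119). Depth limits genes of a few counts, where 1 library decides calls such as FCGR3A, CD14 and DCN.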

Other observations

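AGR2, MUC13, CPA4, S100P, S100A9 and TCN1 were among the 95 genes of at least 5 CPM that were 2-fold or more higher with GW-516. They were on no list and were chosen after their values were seen, so nothing about a group of genes rests on them. AGR2, a protein-folding enzyme of mucus-secreting cells, stood at 85.6 and 84.8 CPM with GW-516 against 25.2 and 24.9 CPM with PRT4165 and 34.9 and 35.4 CPM in Scramble shRNA cells (log2 1.77 ± 0.0496). MUC13, a membrane mucin, stood at 41.2 and 43.0 CPM with GW-516 against 13.6 and 11.7 CPM with PRT4165, while the gel-forming mucin MUC5B was lower with GW-516. CPA4, a carboxypeptidase, stood at 72.7 and 71.8 CPM with GW-516, at 18.9 and 20.3 CPM with PRT4165 and at 2.46 and 2.33 CPM in Scramble shRNA cells. S100P and S100A9, calcium-binding proteins, were higher by 1.48 and 1.22, and TCN1, a carrier of vitamin B12, by 1.16. In AGR2 and MUC13 both PRT4165 libraries lay below the Scramble shRNA libraries and both GW-516 libraries above them.

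At 100 CPM or more, 6 genes were 2-fold or more higher, namely GDF15, CLU, TIMP1, DUSP5, GPRC5A and GRAMD1B. CLU, the secreted chaperone clusterin, stood at 575 and 573 CPM with GW-516 against 193 and 188 CPM with PRT4165 and 183 and 183 CPM in Scramble shRNA cells (1.59 ± 0.0335, adjusted p = 2.5e-20). GPRC5A, an orphan receptor induced by retinoic acid, stood at 729.6 and 732 CPM with GW-516 against 357 and 343 CPM with PRT4165. ID2, an inhibitor of basic helix-loop-helix factors, stood at 48.2 and 49.1 CPM with GW-516 against 17.9 and 17.6 CPM with PRT4165, and its relatives ID1 and ID3, both on the stemness list, were higher by 0.59 and 0.67. FST, which binds activin, was higher by 1.3.

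Of the 18478 genes tested, 38 had 10 or more counts in both GW-516 libraries and 2 or fewer in both PRT4165 libraries. The reverse held for 2. Over all 57445 identifiers, tested or not, the numbers were 60 and 2. Such genes could pass the filter on low counts through the group where they were high, so they form a selected set. Of the 38, 16 were protein-coding and 15 were lincRNA or antisense genes. The 2 genes with the reverse were lincRNA or antisense genes as well. LINC00536 had 49 and 43 counts with GW-516 and 0 and 0 with PRT4165. SPP1, which encodes osteopontin, had 40 and 24 counts with GW-516 and 0 and 2 with PRT4165. ESR1, the estrogen receptor gene, had 18 and 14 counts with GW-516 and 0 and 0 with PRT4165. These are 0.557 CPM or less. The GW-516 libraries were somewhat deeper, with 83917665 and 80652630 counts against 79544492 and 69090002 with PRT4165.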
